A study of Mus musculus with 32 samples.

Results

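The arrays described here are the 8 sham arrays, 4 labelled striatum and 4 labelled cortex, of the 32 arrays in the study. They were chosen by their labels alone, and no measured value entered the choice. The mice, 8 to 10 weeks old and of the C57/Bl6 strain, carried the label Gpx1-/-, so both groups share a genotype that by its name lacks the enzyme glutathione peroxidase 1, which breaks down hydrogen peroxide. A growth protocol among the labels speaks of male wild-type mice instead, and none of the 32 arrays was labelled wild type. Sham animals were anaesthetised and had the neck opened, with no occlusion, and RNA came from the right striatum and right cortex. The other 24 arrays came from mice whose middle cerebral artery was blocked for 2 h with a suture and then reperfused for 2, 8 or 24 h. The labels do not say whether a cortex and a striatum array of the same number came from one mouse, or whether tissue was pooled, so p-values measure the spread between these arrays only.

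The striatum is the input nucleus of the basal ganglia. Most of its neurons are GABA-releasing projection neurons, which carry either the dopamine receptor D1 with substance P and dynorphin (direct pathway) or the receptor D2 with enkephalin (indirect pathway). The cortex is built mainly of layered glutamate-releasing pyramidal neurons, which use the vesicular glutamate transporter Slc17a7 and arise under transcription factors such as Tbr1 and Fezf2. Comparing the regions without ischaemia gives the baseline against which any difference in their response to stroke has to be read.

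RNA was hybridised to Illumina bead arrays of 25697 probes, and values here are log2 normalized signals. The median raw signal was 68.9 to 83.6, and 11032 to 11840 probes were detected per array. Across genes, Pearson's r was 0.985 to 0.993 between arrays of one region and 0.938 to 0.957 between arrays of different regions. Of 8691 genes tested with limma, 3667 differed at an adjusted p under 0.05, or 42.2% of them. Of these, 1858 were higher in striatum (21.4%) and 1809 were lower (20.8%). Among the 7763 genes detected on all 8 arrays, 20.6% were higher and 20.5% lower. Counts of list members below are to be read beside these shares. A difference of at least 2-fold was found for 258 higher genes (2.97%) and 292 lower genes (3.36%), so 85% of the called genes differed by less. The arrays of the regions did not overlap for 3474 genes (40%), and the median difference over all genes was -0.00385. The slides that carried the cortex arrays carried none from striatum, so slide and region cannot be told apart among the sham arrays. In tissue RNA, fewer cells of a type and less RNA per cell cannot be told apart either.

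The markers go against a plain reading of the striatum label. The genes furthest above cortex were not those of striatal projection neurons but neuropeptides of the hypothalamus, the thalamic genes Gbx2 and Prkcd, the dopamine transporter Slc6a3 and the serotonin-synthesising enzyme Tph2. The 18 measured signalling genes shared by striatal projection neurons were detected on all 8 arrays. The arrays are therefore called by their label below, with no other tissue name given to them. The share of other tissue in either dissection was not tested. Genes described below that had no detected probe on any array of a region passed the filter through the other region and had to differ: all 121 genes detected on 0 cortex arrays were called higher, and all 59 detected on 0 striatum arrays were called lower. For these, the fold is given as a lower bound. Other named genes were detected on part of a region's arrays, so that their differences rest partly on signals not above background. In cortex, Pmch, Avp, Tph2, Foxp2, Gabrg1 and Gss were detected on 1 array, and Th, Chat, Slc5a7, Slc35d3, Nxph4 and Kcna5 on 2. In striatum, Fezf2 and Npas4 were detected on 1 array, Bhlhe22 on 2, and Tbr1, Cort and Egr2 on 3.

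**Figure D1:**
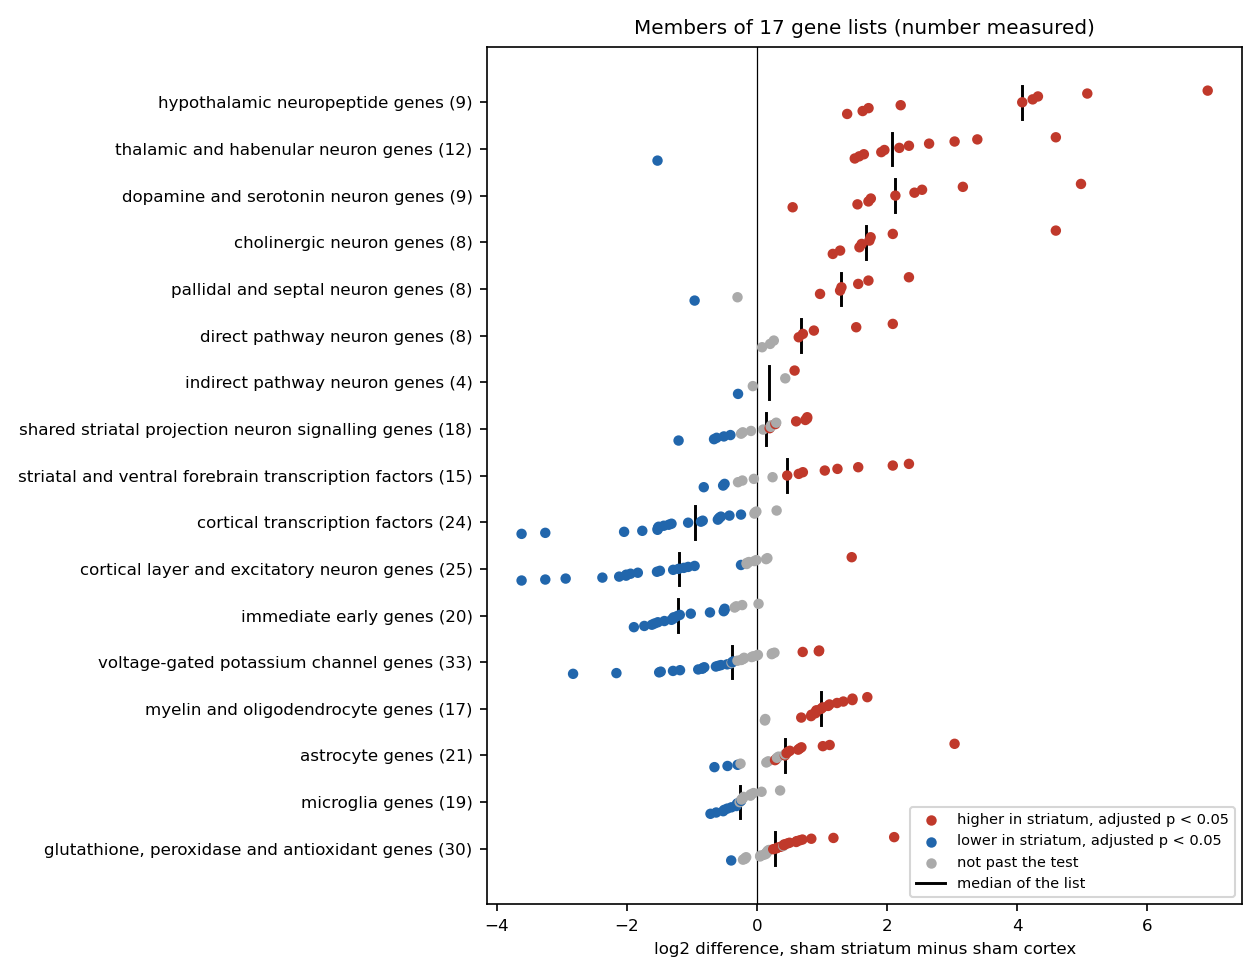
Log2 difference between sham striatum and sham cortex (x axis) for each measured member of 17 gene lists, with the number measured in brackets. Each point is a gene, coloured by its call, and the black bar is the median of the list. Hypothalamic, thalamic, dopamine and serotonin genes reach the right end of the axis, up to 6.93 for Pmch, while the 18 shared striatal projection neuron genes lie between -1.20 and 0.77.

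Promoter stretches are shown for a pair of hypothalamic peptide genes, Pmch, the precursor of melanin-concentrating hormone, and Hcrt, the precursor of the wake-promoting orexins. Both are among the genes that most separate the arrays, though the peptide genes Oxt, Avp and Gal had larger differences than Hcrt. The stretches are the 200 bases before the annotated start, from RefSeq on GRCm38.p6, at chr10:88090872-88091071 (plus strand) and chr11:100762932-100763131 (minus strand). Capitals mark TATAAA, searched on both strands, the letters of a TATA box. It begins at base -27 in Pmch and at base -33 in Hcrt, counted back from the start.
Pmch: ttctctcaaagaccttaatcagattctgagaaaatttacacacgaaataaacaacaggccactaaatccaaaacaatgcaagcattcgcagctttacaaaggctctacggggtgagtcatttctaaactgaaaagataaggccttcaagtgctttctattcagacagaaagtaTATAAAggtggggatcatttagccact
Hcrt: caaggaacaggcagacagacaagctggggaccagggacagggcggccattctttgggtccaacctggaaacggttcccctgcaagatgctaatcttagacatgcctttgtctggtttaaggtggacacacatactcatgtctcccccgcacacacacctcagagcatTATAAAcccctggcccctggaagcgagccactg
Over windows of 250 bases before to 50 after the start, 3 of the 9 measured hypothalamic peptide genes hold TATAAA (33.3%), as do 15.7% of the 27025 genes in the table. Both promoters shown are among these 3, so they do not stand for the list. A link between the motif and the higher signal was not tested.

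Pmch read 12.39, 12.48, 11.90 and 12.12 on striatum arrays 1 to 4, and 6.11, 4.79, 5.21 and 5.07 on the cortex arrays. The groups lay far apart, with a log2 difference of 6.93 (SE 0.24, adjusted p = 1.3e-08), and the probe was detected on 1 cortex array only. Oxt, the precursor of oxytocin, read 9.92, 9.79, 9.42 and 10.63 in striatum and was detected on 0 cortex arrays, which makes it at least 17.2-fold higher (adjusted p = 2.05e-08). Its neighbour in function Avp, the precursor of vasopressin, read 9.79, 9.70, 8.84 and 9.53 against 4.80 to 5.78 in cortex, a difference of 4.32 (SE 0.23, adjusted p = 2.14e-07). Hcrt lay between 8.65 and 9.24 in striatum and was at least 9.22-fold higher (adjusted p = 2.75e-08). Gal, the precursor of galanin, lay between 9.39 and 9.60 and was at least 12.6-fold higher (adjusted p = 3.19e-08). Of 14 hypothalamic genes listed, 13 had a probe, 9 passed the filter and all 9 of these were higher, 4 of them with no detection in cortex. The 3 detected on all 8 arrays, among them Hdc, which makes histamine (difference 2.21, SE 0.13, adjusted p = 4.23e-07), were higher as well. The summed signal of the 9 genes was 8510 to 11200 on striatum arrays and 780 to 970 on cortex arrays. Such sums, here and below, are of linear signals, so the brightest members weigh most.

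Thalamic and habenular genes formed the next group. Tcf7l2, a transcription factor of the developing and adult thalamus, read 10.41, 10.35, 9.87 and 9.69 in striatum and 7.04, 7.15, 6.93 and 7.04 in cortex, a difference of 3.04 (SE 0.15, adjusted p = 9.48e-08). Prkcd, a protein kinase C isoform of thalamic relay neurons, lay between 10.51 and 10.86 against 7.09 to 7.52, a difference of 3.39 (SE 0.12, adjusted p = 1.34e-08). Slc17a6, the vesicular glutamate transporter of subcortical glutamate neurons, lay between 12.74 and 13.10 against 9.96 to 10.42, a difference of 2.65 (SE 0.12, adjusted p = 4.73e-08). Gbx2, a homeobox factor needed to form the thalamus, was detected on all striatum arrays and on 0 cortex arrays, and was at least 11.4-fold higher (adjusted p = 4.43e-10). Of 12 measured members 11 were higher, including all 8 that were detected on every array, and 1, Lhx2, was lower. Lhx2 also specifies cortical progenitors and stands in the cortical list too. The summed signal was 18200 to 21700 in striatum and 3240 to 4220 in cortex.

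**Figure D2:**
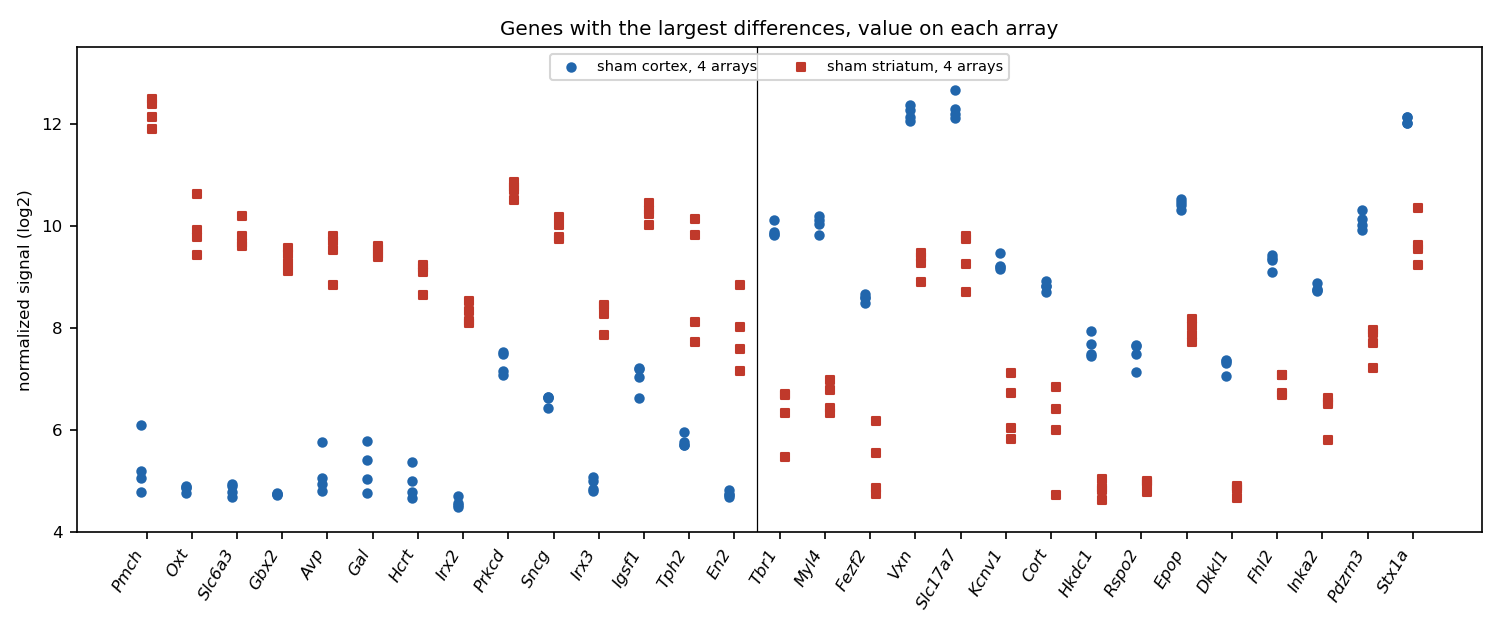
Normalized log2 signal (y axis) on each of the 8 sham arrays for the named genes among the 15 furthest above cortex (left) and the 15 furthest below (right). Circles are cortex arrays and squares striatum arrays, and in none of the genes shown do the regions overlap. Tph2, En2, Tbr1, Fezf2 and Cort spread more widely over the striatum arrays than over the cortex arrays.

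The 9 measured genes of dopamine and serotonin neurons were higher on every striatum array than on any cortex array. Over all genes tested, the arrays of the regions did not overlap for 40%. Slc6a3, the dopamine reuptake transporter, read 10.18, 9.80, 9.66 and 9.61 in striatum, and with no detection in cortex it was at least 15.8-fold higher (adjusted p = 1.04e-09). Tph2, the rate-limiting enzyme of serotonin synthesis in neurons, read 9.82, 7.73, 10.14 and 8.12 in striatum and 5.70 to 5.97 in cortex, a difference of 3.17 (SE 0.45, adjusted p = 0.000197). Slc6a4, the serotonin reuptake transporter, read 8.00, 5.90, 8.28 and 6.29 and was at least 2.43-fold higher (adjusted p = 0.000878). Slc18a2, which loads monoamines into vesicles, read 7.12, 5.99, 7.62 and 6.44. All 3 were higher on striatum arrays 1 and 3 than on arrays 2 and 4. Ddc, shared by dopamine and serotonin synthesis, was higher by 2.42 (SE 0.16, adjusted p = 9.24e-07), and Th, the rate-limiting enzyme of dopamine synthesis, by 1.72 (SE 0.31, adjusted p = 0.00113). Of 9 measured members all were higher, 4 of them with no detection in cortex, which had to differ. Only 3 were detected on all 8 arrays, and these were higher as well, against 20.6% of all genes detected on every array. The summed signal was 3440 to 5730 in striatum and 929 to 1130 in cortex.

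Several other leading genes are developmental factors of midbrain, hindbrain or diencephalon. Irx2 and Irx3, Iroquois homeobox factors that pattern the neural tube, were at least 5.41-fold and 5.34-fold higher. En2, which patterns midbrain and cerebellum, was at least 4.17-fold higher. The 3 were detected on all striatum arrays and no cortex array. Sncg, a synuclein abundant in long-axon and monoamine neurons, read 9.73 to 10.17 against 6.43 to 6.65 (difference 3.33, SE 0.11, adjusted p = 8.51e-09). Igsf1, a membrane glycoprotein of pituitary and hypothalamus, read 10.01 to 10.46 against 6.62 to 7.21 (difference 3.23, SE 0.14, adjusted p = 3.45e-08).

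Cholinergic neurons are found as interneurons in the striatum and in the basal forebrain, habenula and brainstem. All 8 measured members of their list, which also holds the thalamic factor Gbx2, were higher, 4 of them with no detection in cortex, which had to differ. Only 2 were detected on all 8 arrays, and both were higher. Among all genes detected on every array 20.6% were higher and 20.5% lower. Chat, which makes acetylcholine, read 7.44, 7.69, 7.61 and 7.63 in striatum and 5.84, 5.66, 5.67 and 6.20 in cortex, a difference of 1.75 (SE 0.12, adjusted p = 1.27e-06). Slc5a7, the choline uptake transporter, differed by 1.73 (SE 0.15, adjusted p = 5.05e-06), and Slc18a3, which loads acetylcholine into vesicles, was at least 1.42-fold higher (adjusted p = 8.94e-07). Of 8 measured pallidal and septal genes 6 were higher and 1 was lower, 2 of the higher ones with no detection in cortex. Of the 4 detected on all 8 arrays 3 were higher and 1 lower. Zic1, a zinc finger factor of septum and thalamus, was higher by 2.34 (SE 0.18, adjusted p = 2.84e-06). Nkx2-1, which specifies the pallidum, interneurons and hypothalamus, was at least 1.57-fold higher (adjusted p = 4.7e-06).

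The direct pathway genes had a median difference of 0.68. Drd1, the dopamine D1 receptor, read 9.42, 9.74, 9.49 and 9.30 in striatum and 9.16, 9.31, 9.32 and 9.35 in cortex, and the groups overlapped (difference 0.20, SE 0.10, adjusted p = 0.133). Pdyn, the dynorphin precursor, read 10.61 to 10.98 against 10.28 to 10.89, also with overlap (difference 0.26, SE 0.13, adjusted p = 0.141). Without cortex array 3 Pdyn passed, at 0.39 (adjusted p = 0.015). Tac1, the precursor of substance P, did pass, with 10.74, 10.80, 10.51 and 10.90 against 9.64, 9.79, 10.13 and 9.87, a difference of 0.88 (SE 0.12, adjusted p = 0.000142). Isl1, a LIM homeobox factor of direct pathway, cholinergic and hypothalamic neurons, was higher by 2.09 (SE 0.15, adjusted p = 1.32e-06), and Zfp521, a zinc finger factor of direct pathway neurons, by 1.53 (SE 0.11, adjusted p = 1.6e-06). Slc35d3, an orphan solute carrier that affects D1 receptor traffic, was higher by 0.64 (SE 0.16, adjusted p = 0.00827), and Ebf1, a factor of differentiating direct pathway neurons, with no detection in cortex, was at least 1.41-fold higher. In the fit of all 32 arrays Slc35d3 did not pass (0.60, adjusted p = 0.098), while Sfxn1 did (0.21, adjusted p = 0.0418). Sfxn1, a mitochondrial serine carrier, did not pass (difference 0.08, adjusted p = 0.424). In all, 5 of 8 measured members were higher and 0 lower, against 3 of 6 among those detected on every array.

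Of the indirect pathway genes 4 passed the filter. Drd2, the dopamine D2 receptor, read 8.02, 8.31, 7.64 and 7.98 in striatum and 7.22, 7.42, 7.55 and 7.44 in cortex, a difference of 0.58 (SE 0.13, adjusted p = 0.00456). Gucy1a1, a subunit of soluble guanylyl cyclase, was lower by a log2 difference of -0.29 (SE 0.10, adjusted p = 0.0299), and in 6 of 8 fits that left out 1 array it did not pass. Gpr6, an orphan receptor of indirect pathway neurons, read 5.93 to 6.88 against 5.86 to 6.14 (adjusted p = 0.0723), and Plxdc1 differed by -0.06 (adjusted p = 0.657). Without striatum array 3 Gpr6 passed, at 0.61 (adjusted p = 0.00711). In the fit of all 32 arrays none of the 4 passed, and Drd2 had a difference of 0.56 (adjusted p = 0.105).

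The shared signalling genes of both pathways moved in both directions. Of 18 measured, all detected on every array, 6 were higher, 5 were lower and 7 did not pass, with a median of 0.15. Their summed signal was 29000 to 34600 in striatum and 36200 to 38200 in cortex. The brightest members weigh most in this sum, which runs opposite to the median. Among all genes detected on every array, 20.6% were higher and 20.5% lower. Ppp1r1b, the dopamine-regulated phosphatase inhibitor DARPP-32, read 11.06, 11.38, 11.11 and 11.47 in striatum and 10.93, 10.93, 11.16 and 11.14 in cortex, and did not pass (difference 0.21, SE 0.11, adjusted p = 0.146). Of its other 2 probes, both dimmer, 1 was higher by 0.36 (adjusted p = 0.0303) and 1 did not pass (0.19, adjusted p = 0.408). Pde10a, a cyclic nucleotide phosphodiesterase typical of these neurons, differed by 0.30 (SE 0.16, adjusted p = 0.166). Rgs9, which shortens D2 receptor signalling, was higher by 0.60 (SE 0.13, adjusted p = 0.00315), Scn4b, a sodium channel subunit, by 0.77 (SE 0.12, adjusted p = 0.000328), Syndig1l by 0.77 (SE 0.16, adjusted p = 0.00273) and Spock3, a matrix proteoglycan, by 0.75 (SE 0.08, adjusted p = 2.19e-05). Pde1b, a calmodulin-dependent phosphodiesterase, was higher by 0.20 (adjusted p = 0.0494), and Strip2 by 0.28 (adjusted p = 0.0232). The lower genes were Arpp19, a phosphatase 2A inhibitor (-1.20, SE 0.08), Itpr1, the inositol trisphosphate receptor (-0.66, SE 0.13), the calcium sensor Hpca (-0.62, SE 0.11), the diacylglycerol kinase Dgkb (-0.51, SE 0.10) and Arpp21, which binds RNA and calmodulin (-0.41, SE 0.12). The phosphatase Ptpn5 (0.10), the G protein subunit Gng7 (-0.09), Pde7b (-0.24), Actn2 (-0.22) and Tmem158 (0.22) did not pass. In the fit of all 32 arrays Scn4b, Syndig1l and Spock3 were higher, and Rgs9 did not pass (0.60, adjusted p = 0.32). Nor did Pde1b (0.20, adjusted p = 0.463), Strip2 (0.29, adjusted p = 0.291) or Arpp21 (-0.41, adjusted p = 0.431) in that fit. Leaving out any 1 of the 8 arrays ended the call of Pde1b (adjusted p from 0.0556 to 0.117). Strip2 did not pass without cortex array 4 (0.26), striatum array 2 (0.26) or striatum array 3 (0.25), nor Arpp21 without cortex array 3 (-0.36), striatum array 1 (-0.32) or striatum array 3 (-0.37). Pde10a passed without striatum array 1, at 0.46 (adjusted p = 0.0211).

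Transcription factors of striatum and ventral forebrain gave 8 higher and 3 lower of 15 measured, where 21.4% of all genes tested were higher and 20.8% lower. Besides Isl1, Zic1, Ebf1 and Nkx2-1, the higher ones were Foxp2, a forkhead factor of striatum and thalamus (1.24, SE 0.12), the homeobox factor Meis1 (1.04, SE 0.17), Id4 (0.64, SE 0.12) and the retinoic acid receptor Rarb (0.47, SE 0.09). A probe of Foxp2 with a difference of 0.35 did not pass (adjusted p = 0.0974), while the other 2 did. In the fit of all 32 arrays 6 were higher, and neither Foxp2 (0.33, adjusted p = 0.0749) nor Rarb (0.46, adjusted p = 0.317) passed. That fit chose the brightest probe of each gene anew, and its Foxp2 value lies near that of the probe at 0.35. Foxp1, a forkhead factor of both regions, was lower (-0.82, SE 0.17), as were Dlx1, of GABA neuron development (-0.52, SE 0.16), and Bcl11b, which marks projection neurons of both regions (-0.50, SE 0.15). Of these 3 only 1 was called in the fit of all 32 arrays, and only 1 without cortex array 4, striatum array 1 or striatum array 3. Meis2 (-0.22), Dlx2 (-0.29), Rxrg (0.24) and Foxo1 (-0.05) did not pass. Dlx2 passed without striatum array 4 (-0.46), and Rxrg without cortex array 4 (0.29) or striatum array 1 (0.29).

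Cortical transcription factors were lower in the arrays labelled striatum almost throughout. Tbr1, a T-box factor of deep-layer pyramidal neurons, read 5.47, 6.70, 6.33 and 6.71 in striatum and 9.88, 10.11, 9.83 and 9.85 in cortex, a difference of -3.62 (SE 0.23, adjusted p = 6.6e-07). Fezf2, which specifies corticospinal neurons, read 4.86, 5.56, 4.75 and 6.18 against 8.60, 8.50, 8.67 and 8.60, a difference of -3.25 (SE 0.25, adjusted p = 2.95e-06), and was detected on 1 striatum array. Mef2c (-2.04), Neurod2 (-1.76), Nr4a2 (-1.52), Bhlhe22 (-1.52) and Lmo4 (-1.35) followed, with SE between 0.08 and 0.23. Lhx2, with no detection in striatum, was at least 1.75-fold lower. Egr1 (-1.31), Cux2 (-1.06), Sox5 (-0.86), Ldb2 (-0.83), Pou3f1 (-0.60), Lmo3 (-0.59), Id2 (-0.57), Bcl6 (-0.55), Nr2f1 (-0.42) and Tle4 (-0.24) were lower too. Of 24 measured 20 were lower and 0 higher. Of the 18 detected on every array 15 were lower, against 20.5% of all genes detected on every array. Rorb (-0.04), Etv1 (-0.01) and Pou3f3 (0.30) did not pass, while Cux1 depended on the probe, with -0.03 (adjusted p = 0.906) on the brighter and -0.92 (adjusted p = 0.000377) on the dimmer one. With scaling to the 75th percentile, or without cortex array 1, Pou3f3 was higher (0.37 and 0.39). The call of Tle4 was lost in 6 of the 8 fits without 1 array, those that kept both cortex array 2 and striatum array 3 (-0.26 to -0.21). The summed signal was 15700 to 18800 in striatum and 35900 to 41300 in cortex.

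Genes of pyramidal neurons and cortical layers gave 17 lower and 1 higher of 25 measured, with a median of -1.20. Tbr1, Fezf2, Cux2, Tle4, Rorb and Etv1 stand in the cortical transcription factor list too, so the counts of these lists are not separate. Of the 20 detected on every array 13 were lower and 0 higher, against 20.5% lower among all genes detected on every array. Slc17a7 read 8.70, 9.74, 9.80 and 9.26 in striatum and 12.29, 12.67, 12.18 and 12.11 in cortex, a difference of -2.94 (SE 0.22, adjusted p = 2.13e-06). It ran opposite to Slc17a6, the subcortical transporter of the same family. Nrgn, a calmodulin-binding protein of spines, differed by -2.12 (SE 0.17, adjusted p = 3.4e-06). Vip, which stands in this list but is best known as an interneuron peptide, differed by -2.37 (SE 0.20, adjusted p = 4.24e-06). The 1 higher gene was Nxph4, a neurexin ligand of deep cortical layers and of subcortical nuclei, at 1.46 (SE 0.22, adjusted p = 0.000342). Etv1 and Rorb, the layer markers with the smallest differences, had array values that overlapped between regions.

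The other leading lower genes were of mixed function. Myl4, a myosin light chain best known from atrial muscle, read 6.34 to 6.97 against 9.82 to 10.18, a difference of -3.40 (SE 0.14, adjusted p = 3.09e-08). Vxn, known as a neurogenesis factor in frog, differed by -2.94 (SE 0.13, adjusted p = 3.19e-08). Stx1a, the syntaxin of synaptic vesicle fusion, read 9.23 to 10.35 against 12.01 to 12.13 (difference -2.38, SE 0.19, adjusted p = 3.33e-06). Another 3 were detected on 0 striatum arrays, namely the hexokinase Hkdc1, at least 3.79-fold lower, the Wnt pathway ligand Rspo2, at least 3.41-fold lower, and Dkkl1, at least 2.95-fold lower. Epop, a cofactor of chromatin silencing, Fhl2, a LIM-domain adaptor, Inka2 and Pdzrn3 were lower by between -2.47 and -2.40, with SE between 0.11 and 0.16.

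Immediate early genes, which neurons switch on within minutes of activity, were lower in striatum in most cases. Arc, a cytoskeletal protein of active synapses, read 7.56, 8.08, 7.88 and 8.03 in striatum and 9.10, 9.59, 10.12 and 10.29 in cortex, a difference of -1.89 (SE 0.23, adjusted p = 5.96e-05). Npas4, an activity-dependent factor, read 5.51, 6.05, 5.23 and 5.28 against 7.26, 6.84, 7.77 and 7.10, a difference of -1.73 (SE 0.21, adjusted p = 6.6e-05), and was detected on 1 striatum array. With all 32 arrays fitted Npas4 did not pass (-1.65, adjusted p = 0.101), and 11 members of the list were lower. The zinc finger factors Egr4 (-1.61, SE 0.27) and Egr2 (-1.57, SE 0.25) were lower with it. Of 20 measured members 16 were lower and 0 higher. Of the 17 detected on every array 14 were lower, against 20.5% of all genes detected on every array. Ier3 showed the smallest difference (0.03, adjusted p = 0.856). The summed signal was 8390 to 11000 in striatum and 19000 to 25500 in cortex.

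Promoters of the 3 immediate early factors below are shown because these genes were lower and carry TGACG, the core of the cyclic AMP response element. A link between the motif and the lower signal was not tested, and these promoters were picked for carrying it. They lie at chr19:4989972-4990171 (minus strand), chr6:85513590-85513789 (minus strand) and chr2:57124004-57124203 (minus strand), and capitals mark TGACG on either strand (CGTCA where it lies on the other).
Npas4: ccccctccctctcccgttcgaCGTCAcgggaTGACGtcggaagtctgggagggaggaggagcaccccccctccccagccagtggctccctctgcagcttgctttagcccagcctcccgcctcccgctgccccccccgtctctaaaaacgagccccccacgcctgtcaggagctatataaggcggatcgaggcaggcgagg
Egr4: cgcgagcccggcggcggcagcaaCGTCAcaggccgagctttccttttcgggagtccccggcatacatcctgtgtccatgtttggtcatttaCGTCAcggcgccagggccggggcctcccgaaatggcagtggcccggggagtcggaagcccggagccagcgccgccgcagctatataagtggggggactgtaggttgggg
Nr4a2: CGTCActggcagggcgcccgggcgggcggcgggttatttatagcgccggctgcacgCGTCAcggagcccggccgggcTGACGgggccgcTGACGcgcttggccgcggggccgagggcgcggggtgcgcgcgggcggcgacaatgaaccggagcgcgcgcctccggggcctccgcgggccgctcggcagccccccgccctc
In these 200 bases the motif occurs 2 times in Npas4, 2 times in Egr4 and 4 times in Nr4a2. In the 300-base windows it was found in 13 of the 17 measured immediate early genes with an entry (76.5%), in 11 of the 13 called ones, and in 23% of all genes in the table. A match is a run of letters and not a shown binding site.

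Markers of GABA neurons differed in both directions. Gad1, which makes GABA, had the smallest difference (0.08, SE 0.09, adjusted p = 0.515), with 12.35 to 12.52 in striatum and 12.20 to 12.56 in cortex. Among the lower genes were Cort, the cortistatin precursor, an interneuron peptide (-2.82, SE 0.35, adjusted p = 6.95e-05), and Cck, cholecystokinin, also made by pyramidal neurons (-1.90, SE 0.15, adjusted p = 2.44e-06). Calb2, the calcium buffer calretinin, was higher by 2.19 (SE 0.22, adjusted p = 1.55e-05), and Slc6a11, a GABA transporter of astrocytes in subcortical regions, by 1.76 (SE 0.17, adjusted p = 1.44e-05). In all 6 of 14 were higher and 7 lower. Among 24 neuropeptide and receptor genes 8 were higher and 10 lower. Over all genes tested the shares were 21.4% higher and 20.8% lower. Cckbr, the brain cholecystokinin receptor, was lower (-2.07, SE 0.14, adjusted p = 1.31e-06), together with its ligand Cck. Tacr3, the neurokinin B receptor, was at least 2.15-fold higher with no detection in cortex.

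Receptor genes differed in both directions, and over all genes tested 21.4% were higher and 20.8% lower. The serotonin receptor Htr1f was at least 2.19-fold lower, and the muscarinic receptor Chrm3 differed by -1.08 (SE 0.08, adjusted p = 1.31e-06). Of 9 measured dopamine, adenosine, muscarinic and serotonin receptors 3 were higher and 5 lower. The AMPA receptor subunits Gria2 (-0.87, SE 0.09) and Gria3 (-0.87, SE 0.12) were lower, within 3 higher and 5 lower of 12 glutamate receptor genes. In the fit of all 32 arrays 3 of them were lower, and without striatum array 3 only 1 was higher. Glra1, the adult glycine receptor subunit of brainstem and spinal cord, read 6.45, 6.54, 7.20 and 6.07 in striatum and was detected on no cortex array, and it was at least 1.66-fold higher. Gabrg1 was higher by 1.31 (SE 0.16, adjusted p = 6.07e-05). Of 7 endocannabinoid genes 6 were lower and 0 higher, led by Mgll, which degrades 2-arachidonoylglycerol (-1.31, SE 0.11, adjusted p = 3.96e-06), with the cannabinoid receptor Cnr1 at -0.41 (SE 0.09, adjusted p = 0.00448). Cnr1 did not pass with all 32 arrays fitted (-0.39, adjusted p = 0.0508).

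Potassium channel genes were mostly lower, 17 of 33 against 3 higher. The shares over all genes tested, for this and the lists that follow, were 21.4% higher and 20.8% lower. Kcnv1, a silent subunit that modifies Kv2 channels, read 5.83, 6.05, 6.73 and 7.12 in striatum and 9.16 to 9.47 in cortex, a difference of -2.82 (SE 0.24, adjusted p = 4.58e-06). Kcnh3, a channel of forebrain pyramidal neurons, differed by -2.16 (SE 0.15, adjusted p = 1.55e-06), and Kcnh1, Kcnj4 and Kcnf1 by -1.50, -1.48 and -1.29. The 3 higher genes were Kcnip1 (0.96), Kcnh2 (0.95) and Kcna5 (0.70). Kcna5 did not pass without cortex array 1 (0.66), cortex array 2 (0.56), striatum array 3 (0.74) or striatum array 4 (0.47). The potassium channel gene Kcnc1 was lower on its brighter probe (-0.41, adjusted p = 0.0433) and higher on its dimmer one (0.67, adjusted p = 0.00677). The calcium channel subunit gene Cacnb4 likewise was lower on its brighter probe (-0.74) and higher on its dimmer one (0.98). Of 36 cyclic nucleotide, G protein and RGS genes 7 were higher and 14 lower, with the phosphodiesterase Pde1a at -1.87 (SE 0.14) and Rgs16, a regulator of G protein signalling of thalamic neurons, at 1.64 (SE 0.11). Of 24 calcium-binding proteins 6 were higher and 16 lower, with Camk2a, the postsynaptic kinase, at -1.83 (SE 0.13) and the sensor Hpcal4 at -1.59 (SE 0.14). Of 20 sodium, calcium and HCN channel genes 6 were higher and 7 lower, the calcium channel subunit Cacnb3 at -1.30 (SE 0.11) and the AMPA receptor and calcium channel partner Cacng4 at 0.92 (SE 0.14). Of 36 guidance and adhesion genes 6 were higher and 15 lower, the largest on either side being Ntng1, a netrin-like membrane ligand of thalamic axons (1.51, SE 0.09), and Flrt2 (-1.48, SE 0.09). Nefh, the heavy neurofilament of large axons, was higher by 1.79 (SE 0.17, adjusted p = 9.25e-06).

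Myelin genes were higher in striatum in 15 of 17 cases, and none was lower. Mobp, a structural myelin protein, read 11.92, 12.08, 11.63 and 11.75 in striatum and 10.54, 10.45, 10.16 and 10.36 in cortex, a difference of 1.47 (SE 0.12, adjusted p = 3.37e-06). Trf, the iron carrier transferrin, made by oligodendrocytes, was highest in the list at 1.70 (SE 0.11, adjusted p = 8.39e-07). Mbp, myelin basic protein, gave 3 answers from 3 probes. The brightest, at a mean of 13.93, did not pass (0.12), the next, at 11.69, was higher by 1.50 (SE 0.09, adjusted p = 5.1e-07), and the dimmest, at 8.66, was lower (-0.77, SE 0.09, adjusted p = 4.52e-05). Which transcript each probe reads was not tested. The summed signal of the list was 77400 to 80600 in striatum and 50900 to 52800 in cortex.

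**Figure D3:**
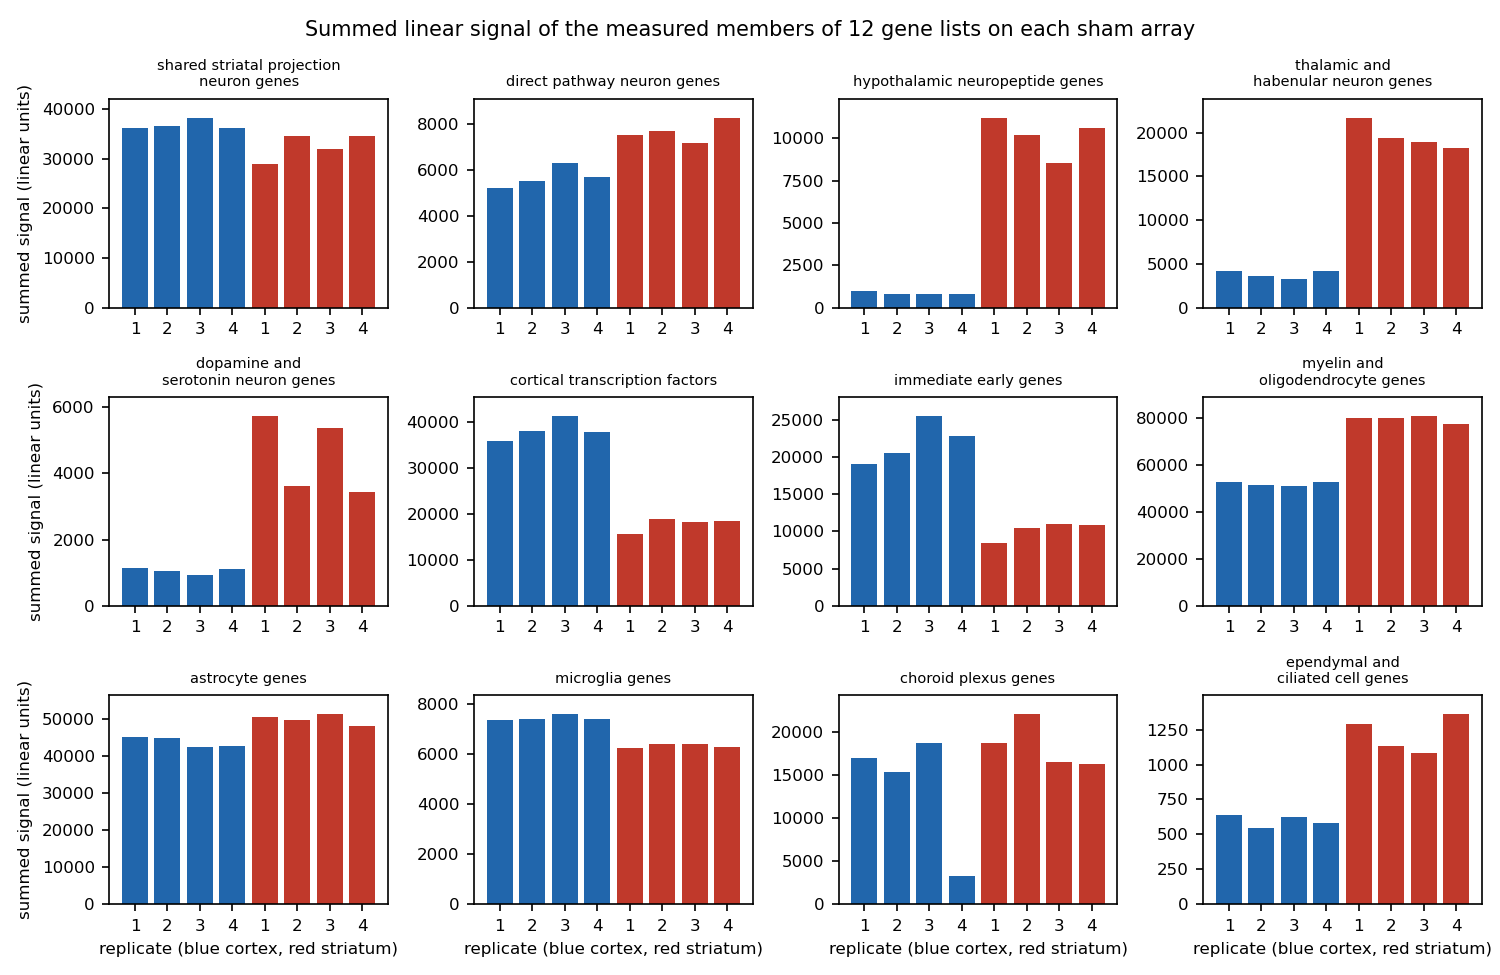
Summed linear signal (y axis, linear units, from 0) of the measured members of 12 gene lists on each sham array, cortex replicates 1 to 4 in blue and striatum replicates 1 to 4 in red. Myelin sums lie between 77400 and 80600 on the striatum arrays and between 50900 and 52800 on the cortex arrays, striatum arrays 1 and 3 exceed 2 and 4 in the dopamine and serotonin panel, and cortex array 4 is low in the choroid plexus panel.

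Astrocyte genes gave 12 higher and 3 lower of 21. Agt, angiotensinogen, which subcortical astrocytes make, read 9.71, 9.48, 9.68 and 9.96 in striatum and 6.88, 6.84, 6.32 and 6.63 in cortex, a difference of 3.04 (SE 0.14, adjusted p = 4.93e-08). The water channel Aqp4 was higher by 1.01 (SE 0.13, adjusted p = 7.36e-05), while Aldh1l1, a general astrocyte marker, did not pass (0.15, adjusted p = 0.316). Of 19 microglia genes 10 were lower and 0 higher, by small amounts, with Fcrls at -0.71 (SE 0.08, adjusted p = 4.51e-05). Only 4 of the 19 were lower in the fit of all 32 arrays, and 6 without cortex array 3 or without cortex array 4. The summed microglia signal was 6230 to 6410 in striatum and 7380 to 7590 in cortex. Of 15 endothelial and mural genes 4 were higher (Ly6c1, Itm2a, Ly6a and Slco1a4, by 0.37 to 0.54) and 0 lower, and 1 was higher in the fit of all 32 arrays. Among all genes tested, 21.4% were higher and 20.8% lower. Of 6 ependymal and ciliated cell genes 5 were higher, led by Dynlrb2, a dynein light chain (1.33, SE 0.12, adjusted p = 7.08e-06).

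Choroid plexus genes varied between the cortex arrays. Ttr, transthyretin, the main secreted protein of the choroid plexus, read 13.64, 13.45, 13.74 and 8.65 on cortex arrays 1 to 4 and 13.44 to 13.89 on the striatum arrays, and did not pass (1.20, SE 0.92, adjusted p = 0.318). Cortex array 4 was also lowest for Clic6, an intracellular chloride channel protein (6.53 against 8.10 to 8.64), and for Ecrg4, a secreted peptide precursor (6.18 against 8.35 to 8.69). Of 10 measured choroid plexus genes 6 were higher, 3 without cortex array 4, striatum array 1 or striatum array 2, and 2 in the fit of all 32 arrays. Otx2, a homeobox factor of choroid plexus and midbrain, read 8.59, 8.25, 7.94 and 7.66 in striatum and 6.16, 5.88, 6.58 and 5.03 in cortex, a difference of 2.20 (SE 0.29, adjusted p = 0.00012). The summed signal was 16200 to 22000 on striatum arrays, and 3240 on cortex array 4 against 15300 to 18700 on the other cortex arrays.

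**Figure D4:**
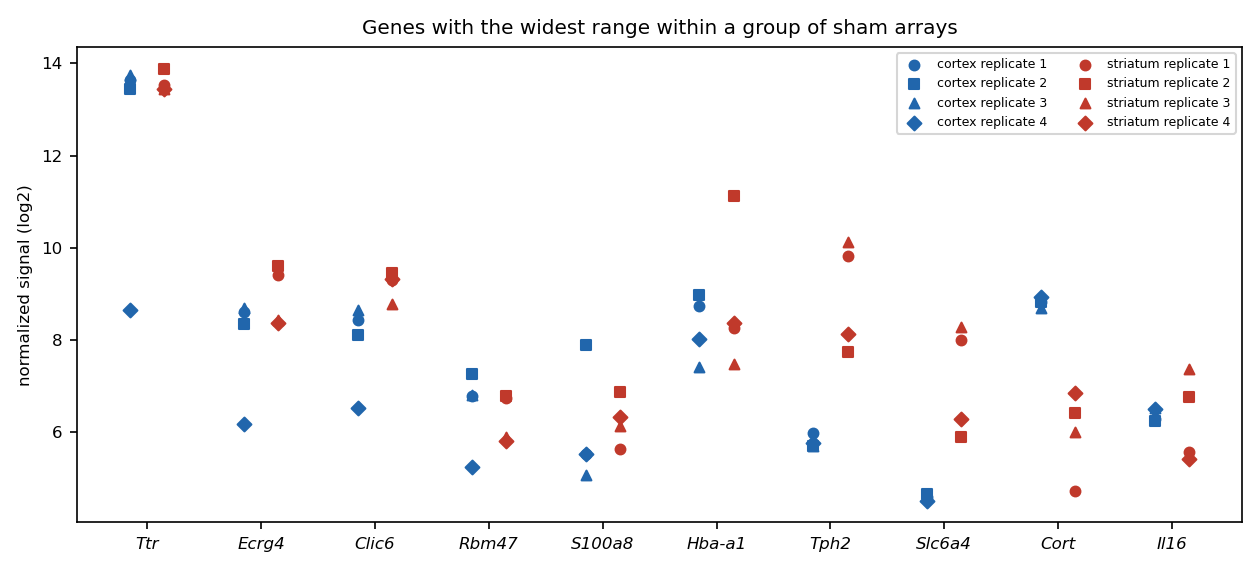
Normalized log2 signal (y axis) of the 10 genes with the widest range over the 4 arrays of a region. Colour gives the region and marker shape the replicate. Cortex replicate 4 is low for Ttr, Ecrg4, Clic6 and Rbm47, striatum replicate 2 is high for Hba-a1 (11.11), and striatum replicates 1 and 3 are high for Tph2 and Slc6a4.

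Within the groups, the widest range over striatum arrays was that of Hba-a1, a haemoglobin chain of red blood cells, at 8.27, 11.11, 7.49 and 8.36. Cort ranged from 4.72 on striatum array 1 to 6.85 on array 4, and Il16, a cytokine, from 5.42 to 7.37. In cortex, S100a8, a neutrophil protein, read 7.88 on array 2 and 5.07 to 5.52 on the others, and the RNA-binding protein Rbm47 read 5.23 on array 4 and 6.78 to 7.27 on the others. None of these except Cort differed between regions, although S100a8 did without cortex array 2 (0.87, adjusted p = 0.0181).

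Gpx1, the gene named in the genotype, gave a signal on every array. It read 9.47, 9.48, 9.25 and 9.42 in striatum and between 8.91 and 9.04 on the 4 cortex arrays. The groups did not overlap, and the difference was 0.41 (SE 0.08, adjusted p = 0.00185), but in the fit of all 32 arrays it did not pass (0.41, adjusted p = 0.101). Where the probe lies relative to the disrupted part of the gene was not tested, so its signal does not check the genotype. Of 30 measured genes of glutathione and peroxide handling 15 were higher, 1 was lower and 14 did not pass. Gpx3, the secreted glutathione peroxidase, read 9.31, 9.15, 9.02 and 9.21 in striatum and 7.29, 7.03, 7.11 and 6.81 in cortex, a difference of 2.11 (SE 0.11, adjusted p = 1.61e-07). Mgst1, a microsomal glutathione transferase, was higher by 1.18 (SE 0.10, adjusted p = 4.69e-06), Gss, glutathione synthetase, by 0.84 (SE 0.09), Gstk1 by 0.70 (SE 0.11) and the peroxiredoxin Prdx4 by 0.66 (SE 0.08). The 1 lower gene was Mgst3 (-0.39, SE 0.09, adjusted p = 0.004), and Gpx7 differed by 0.05 (adjusted p = 0.75). Of 36 respiratory chain and ATP synthase genes 14 were higher and 0 lower, at most by 0.64 (Ndufb5, a complex I subunit, SE 0.11, adjusted p = 0.000856). Their median was 0.23.

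The regions were compared again in the reperfused arrays, which share slides but no array with the sham comparison. Of the 8 slides 0 held both regions, so slide and region cannot be told apart in this comparison either. In a fit of all 32 arrays, the regions differed at 2 h in 36.6% of 9475 genes, at 8 h in 32.7% and at 24 h in 28.5%. Of the 3667 genes called in sham arrays, 96.5% had the same direction at 2 h, 94.9% at 8 h and 94.2% at 24 h. Among the 8691 genes tested in both fits, those called in both made up 67.5% of the sham list and 75.5% of the 3278 called at 2 h. They made up 60.5% of the sham list and 75.8% of the 2923 called at 8 h, and 55.8% and 80% of the 2559 called at 24 h. Of genes called in both, 0 went in opposite directions at 2 h, 2 at 8 h and 4 at 24 h. Pearson's r across 8691 genes, which are not independent, was 0.908, 0.876 and 0.878. The slope of the later on the sham difference over the called genes was 0.88, 0.76 and 0.77. These genes were picked by the same sham differences, which by itself can pull such a slope below equality. The region difference of Pmch was 7.01, 5.55 and 7.35 at 2, 8 and 24 h, that of Slc6a3 4.55, 4.36 and 4.69, that of Slc17a7 -2.03, -1.73 and -1.95 and that of Tbr1 -2.85, -2.53 and -2.76. The region difference of Drd1 was -0.22, -0.92 and -0.21, and that of Ppp1r1b -0.45, -0.55 and -0.90.

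**Figure D5:**
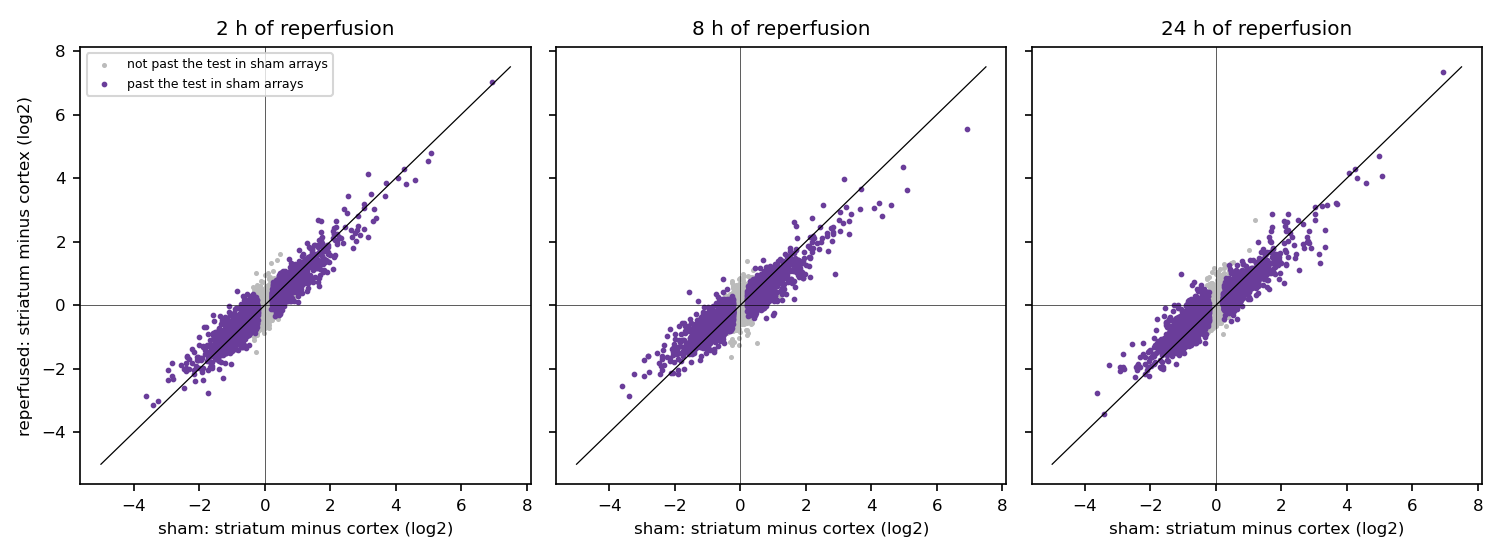
Log2 difference between striatum and cortex in sham arrays (x axis) against the same difference at 2, 8 and 24 h of reperfusion (y axis), 1 point per gene for 8691 genes. Purple points passed the test in sham arrays, grey points did not, and the line marks equal differences. Pearson's r is 0.908, 0.876 and 0.878, and the slope over the called genes is 0.88, 0.76 and 0.77, below the line of equal differences. Picking genes by the sham differences can by itself lower such a slope.

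A change of the region difference itself from its sham value was called for 0 genes at 2 h and 0 at 8 h by limma, where 607 and 748 genes had an unadjusted p under 0.05. At 24 h it was called for 6 of 9475 genes, with 815 at an unadjusted p under 0.05. Among them Glra1 fell by 1.31 (SE 0.22, adjusted p = 0.0208), and Sla, an adaptor of lymphocyte receptor signalling, rose by 1.31 (SE 0.26, adjusted p = 0.0449). The other 4 were Ankrd35, Cdc37l1, Fam199x and Nrcam, and these genes were picked by this test after their values were seen. For other genes, passing the test in one set of arrays and not in another is no test of a change.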

How the data were processed

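RNA of each sample was labelled and hybridised to Illumina MouseRef-8 bead arrays. The deposited values are linear bead intensities per probe, neither normalized nor background-subtracted, exported with BeadStudio 3.3.7 per the file headers. A detection fraction, 1 minus the detection p-value, was deposited beside each intensity. Here the 8 sham arrays were background-corrected and quantile-normalized with neqc (offset 16) in limma 3.58.1 (R 4.3.3). A probe entered if 4 or more of the 8 arrays gave it a detection p below 0.01 (11600 probes), and the brightest one stood for its gene. A 2-group limma fit was used, with Benjamini-Hochberg adjustment over 8691 genes and calls at an adjusted p under 0.05. Differences are striatum minus cortex on the log2 scale, and an SE is the fit's. Where a probe was detected on no array of a group, the fold is a lower bound against the lowest detected signal of those arrays, or the probe's own if higher. The number of arrays, 4 per group, limits the precision. The later times and the changes from sham were fitted on all 32 arrays normalized together, with probes filtered and the brightest chosen anew over these arrays. A gene's probe there can differ from the one in the sham fit. Replicate numbers are those of the probe profiles. A table of the whole series carries the same signals under mirrored numbers, so which sample a numbered array is depends on the file. Codes in the column names were taken to be slides, which the labels do not state. The fit was tested on simulated data.

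The lists were chosen with earlier results of these data known, so their counts are no independent evidence. Genes were named by rule: the 15 highest and 15 lowest called genes with no overlap between regions, the members of each list with the largest differences (at most 5) and the one with the smallest, all members of the projection neuron and transcription factor lists, Gpx1, genes whose probes disagree, and the 5 genes with the widest range in each region. Some genes that the rule picks are not reported here. Kcnip1, Kcnh2, Kcna5, the endothelial genes and the genes that changed at 24 h were named after their values were seen. Alternatives changed the scaling, the background correction, the probe filter, the spread model, the arrays fitted and the replicate block.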

Additional observations from a re-analysis of the deposited data

Results flagged for a closer look

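In 12 of 348 pairs of a named gene and a region, 1 of the 4 arrays stood far from the other 3, where about 1 in 20 would give 17.4. Genes measured on the same array are not independent, and some were named for a wide range. Whether a given array departs by chance was therefore not tested. Cortex array 4 read 8.65 for Ttr, against 13.45 to 13.74 on the others, and 6.18 for Ecrg4, against 8.35 to 8.69. Cortex array 2 read 7.88 for S100a8, against 5.07 to 5.52. The same array read 6.43 for Sncg, 10.15 for Bcl6, 9.47 for Kcnv1, 8.99 for Kcnh1 and 7.83 for Sla. Cortex array 1 read 7.92 for Neurod2, against 8.15 to 8.19. Striatum array 1 read 5.81 for Inka2, against 6.51 to 6.63. Striatum array 4 read 7.16 for Slc5a7, against 7.57 to 7.66, and 9.18 for Gstk1, against 9.43 to 9.46.

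The region difference at 24 h of reperfusion departed from that in sham arrays for 6 genes by limma's interaction term. The change was -1.31 for Glra1, -1.07 for Fam199x, -0.85 for Ankrd35 and -0.60 for Cdc37l1, and it was 1.31 for Sla and 0.53 for Nrcam. The adjusted p was 0.0208 for Glra1 and 0.0449 for the other 5.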

How the results depend on the processing

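The number of genes differing between regions was 3667, and it was between 3219 (all 32 arrays fitted) and 3965 (array weights) under the 10 settings that kept every array. Leaving out 1 array at a time gave 3168 to 3738. The count of at least 2-fold differences was 550, and 373 to 578 under those settings. The share of called genes that were higher stayed between 48.4% and 51.8%. None of the 174 named genes had opposite directions in the main fit and an alternative where either fit called it. The sign of a gene called in neither was not compared. Of their 3130 values under alternatives, 3023 kept their side of the threshold, 88 lost the call and 19 gained it. The difference of Gpx1 was 0.41 with all 32 arrays fitted (adjusted p = 0.101) and 0.41 with slide as a random block (adjusted p = 0.11), and neither passed; the cause was not tested. Npas4 did not pass with all 32 arrays (-1.65, adjusted p = 0.101). Of 1476 counts over the gene lists, 93 moved by more than 1.5 times.

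Fitting the replicate number as a block gave 3937 genes, and 3728, 3315 and 2980 at 2, 8 and 24 h, where the fit without it gave 3472, 3103 and 2702. The labels do not say that a number marks a shared animal. Deviations from the group means correlated at 0.202, 0.217, 0.069 and 0.211 for arrays of the same number, and between -0.294 and 0.232 for the other pairs. These values do not settle whether the numbers pair the arrays. The main fit did not pair them. Striatum arrays 1, 3 and 4 correlated best with a cortex array of another number.

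Of 2153 genes with at least 2 measured probes, 19 had probes called in opposite directions. Among the 144 list or leading genes with such probes, 31 had probes that differed in call, 3 of them in opposite directions. The list counts use the brightest probe of each gene. A signal near background gives only a bound, and 4 arrays per region limit how small a difference can be called.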
